A study of Mus musculus with 6 samples.

Results

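Adipokines are the hormones and signalling proteins that fat tissue releases, and 10 genes were taken here: adiponectin (Adipoq), leptin (Lep), resistin (Retn), adipsin (Cfd), retinol binding protein (Rbp4), the NAD-synthesising enzyme also called visfatin (Nampt), chemerin (Rarres2), apelin (Apln) and the adiponectin receptors Adipor1 and Adipor2. The genes were listed by name, with no measured value in the rule, though earlier results of these data were known when the list was drawn up. Of these 10 genes, 9 had a probe set that carried their symbol alone, among 19938 genes in all, and Cfd was not analysed here. Each of the 9 had 1 such probe set.

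The cells were bone marrow stromal cells, adherent marrow cells that can form bone, fat and stroma, from 6-month-old mice on the C57BL/6 background. The mice were either wild type (WT) or carried a knockout of the microRNA gene miR-188 (KO), and each group had 3 arrays. All cultures, of both genotypes, received the same adipogenic medium with insulin at 5 µg/ml, the glucocorticoid dexamethasone at 1 µM, the phosphodiesterase inhibitor 3-isobutyl-1-methylxanthine at 0.5 mM and 10% fetal calf serum, so there is no array of undifferentiated cells. The series asks how miR-188 bears on the choice between the bone and the fat fate. The labels do not give the way the knockout was made, the days in adipogenic medium or the number of mice behind an array. The labels call the replicates biological without saying whether each came from its own mouse. P-values therefore set the genotype difference against the spread between these samples. Whether that spread is between mice is not known.

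In fat tissue adiponectin and leptin are made mainly by mature adipocytes, and both serve as late markers of fat cell formation. Adiponectin acts through Adipor1 and Adipor2, membrane receptors that act through AMP-activated kinase and PPAR-alpha and whose ceramidase activity lowers cellular ceramide. Apelin and chemerin are ligands of G protein-coupled receptors and are made by stromal, vascular and immune cells as well as by fat. In mice resistin comes mainly from adipocytes, and Rbp4 carries retinol in the blood.

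The microRNA named in the genotype is shown because all comparisons rest on its label. Its mature sequences in RefSeq (GRCm38.p6, minus strand of chromosome X) are given with the seed, bases 2 to 8, in capitals.
mmu-miR-188-5p: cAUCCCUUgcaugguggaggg
mmu-miR-188-3p: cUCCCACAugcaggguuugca
The sequences differ in their seeds. The Mir188 probe set read 7.22, 7.27 and 7.38 in WT and 7.22, 7.22 and 7.13 in KO, a difference of -0.10 (limma adjusted p = 0.348). The groups overlapped. Whether this probe set lies within the deleted part is not given, so it does not check the labels.

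Promoter windows of the 3 members that passed the test below follow, as the 250 bases before the annotated start in RefSeq (GRCm38.p6), printed along the gene's own strand. Capitals mark any match, on either strand, to 6 short motifs: the hypoxia response core ACGTG, the nuclear receptor core AGGTCA, the CCAAT box, the TATA box TATAAA, the GC box GGGCGG and the cAMP response core TGACG.
Apln, chrX:48034854-48035103, minus strand: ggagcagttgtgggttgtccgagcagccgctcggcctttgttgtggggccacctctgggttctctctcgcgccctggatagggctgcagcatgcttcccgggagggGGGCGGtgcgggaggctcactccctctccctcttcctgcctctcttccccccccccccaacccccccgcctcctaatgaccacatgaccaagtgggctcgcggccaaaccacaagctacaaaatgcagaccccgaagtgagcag
Adipor2, chr6:119388735-119388984, minus strand: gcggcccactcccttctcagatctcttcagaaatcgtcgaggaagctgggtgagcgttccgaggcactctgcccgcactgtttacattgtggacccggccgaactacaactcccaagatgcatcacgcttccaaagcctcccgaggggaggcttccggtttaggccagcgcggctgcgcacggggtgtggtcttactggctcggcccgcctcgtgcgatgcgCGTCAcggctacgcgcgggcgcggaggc
Adipor1, chr1:134415128-134415377, plus strand: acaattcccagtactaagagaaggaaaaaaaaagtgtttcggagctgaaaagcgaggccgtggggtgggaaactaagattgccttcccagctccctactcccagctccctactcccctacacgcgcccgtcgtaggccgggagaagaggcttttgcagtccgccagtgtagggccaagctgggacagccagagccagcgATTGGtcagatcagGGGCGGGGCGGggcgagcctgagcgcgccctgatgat
The Apln window held 1 GC box match and none of the other 5 motifs. The Adipor2 window held 1 TGACG match and no GC box match, and this Adipor1 window held 2 overlapping GC box matches and 1 CCAAT match. A second annotated start of Adipor1 has its own window, chr1:134415414-134415663, not printed because it overlaps the transcript from the first start, with 2 TGACG and 2 GC box matches. Of 32851 windows of the same length, 32.7% held GGGCGG, 33.8% CCAAT, 17.8% TGACG, 16.6% ACGTG, 14.0% AGGTCA and 12.4% TATAAA. No motif was found in all 3 printed windows. Adipoq, shown for contrast as an adipocyte hormone that lay at background, held 3 CCAAT matches and none of the other 5 motifs. The window of Lep, also at background and not printed, held 1 GC box match and none of the other 5, like that of Apln.
Adipoq, chr16:23146286-23146535, plus strand: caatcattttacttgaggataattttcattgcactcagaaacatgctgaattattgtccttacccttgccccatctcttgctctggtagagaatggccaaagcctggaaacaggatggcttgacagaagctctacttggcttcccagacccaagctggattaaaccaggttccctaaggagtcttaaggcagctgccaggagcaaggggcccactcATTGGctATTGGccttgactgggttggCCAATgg

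The arrays gave log2 expression values, normalised between arrays, and a background level was needed to read them. It was set at 6.83, the 95th percentile of the means of 1027 olfactory receptor genes, whose products work in the nose. Of the 9 members 6 lay above it in both groups and 3 did not, beside 65.0% of all genes. Levels of different probe sets are not compared with each other here, only with this background.

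The adipocyte hormones themselves were at background. Adipoq read 5.23, 5.27 and 5.34 in WT and 5.24, 5.24 and 5.18 in KO, on average -1.55 and -1.61 log2 units from the background level. No array came near it, and 56.0% of the olfactory receptor genes had a lower mean. The groups overlapped, and the difference of -0.06 (95% interval -0.15 to 0.03, limma adjusted p = 0.473) did not pass the test.

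Lep read 6.07, 6.33 and 6.17 in WT and 6.25, 6.19 and 6.19 in KO. All 6 arrays lay below background and the KO values fell within the WT range. The difference was 0.02 (95% interval -0.14 to 0.18, limma adjusted p = 0.923). Rbp4 read 6.49, 6.52 and 6.46 in WT and 6.48, 6.52 and 6.52 in KO, below background on every array, with a difference of 0.02 (95% interval -0.06 to 0.10, limma adjusted p = 0.826). It was the member just under the level.

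Retn was the member just over it, and its place there depended on the percentile chosen. It read 6.75, 6.96 and 6.89 in WT and 6.88 on each KO array, so WT replicate 1 was below 6.83 and the other 5 arrays were above. The KO values lay inside the WT range, and the difference was 0.02 (95% interval -0.11 to 0.15, limma adjusted p = 0.899). With the 90th percentile of the olfactory receptor genes, 6.47, as the level, Rbp4 joined and 7 members were above. With the 99th percentile, 7.65, or the median of all genes, 7.58, Retn dropped out and 5 remained.

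**Figure D1:**
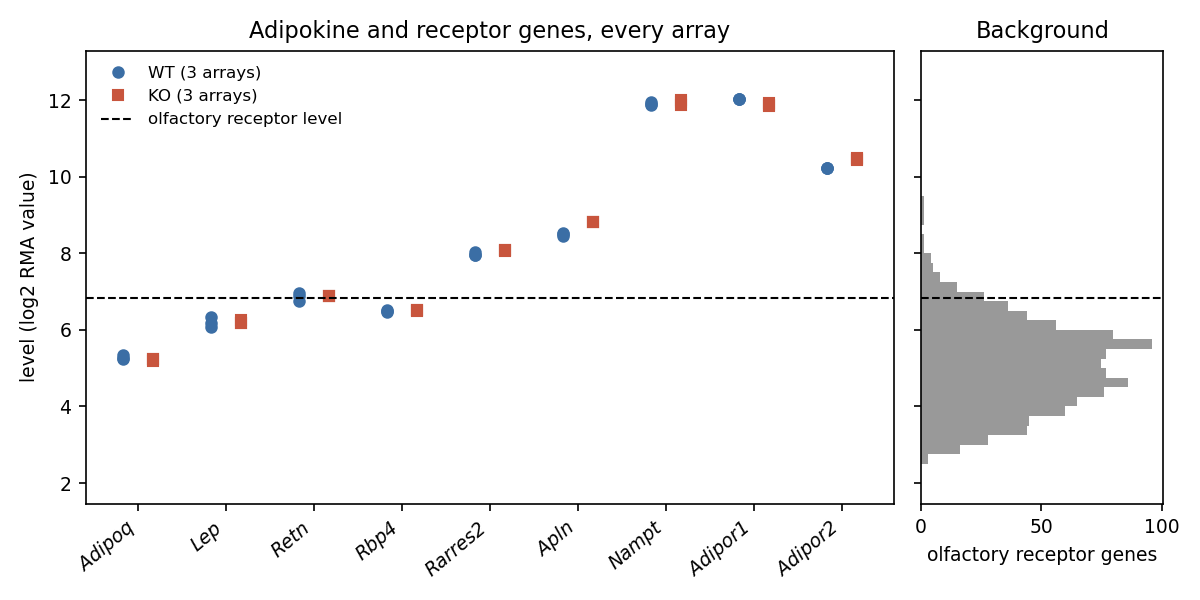
Levels (log2 RMA value) of the 9 measured members on each of the 3 WT and 3 KO arrays, with the olfactory receptor level of 6.83 as a dashed line and, on the right, the number of olfactory receptor genes at each mean level. Adipoq, Lep and Rbp4 lie under the line in both genotypes, Retn lies on it, and the other 5 genes are above it on every array.

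The secreted factors above background on every array were Nampt, Rarres2 and Apln, which cells other than adipocytes also make. Nampt, the rate-limiting enzyme of NAD salvage, read 11.96, 11.86 and 11.90 in WT and 11.87, 12.00 and 11.96 in KO. The groups overlapped and the difference was 0.03 (95% interval -0.08 to 0.15, limma adjusted p = 0.746). Rarres2 read 7.95, 7.95 and 8.02 in WT and 8.09, 8.07 and 8.09 in KO. All KO arrays lay above all WT arrays, yet the difference of 0.11 (95% interval 0.03 to 0.19, limma adjusted p = 0.124) did not pass the adjusted test.

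Apln differed most of the members. It read 8.46, 8.54 and 8.51 in WT and 8.82 on each of the 3 KO arrays. Every KO array was above every WT array. Apln rose by 0.32 (SE 0.03, limma adjusted p = 0.00536), a fold of 1.25, and 2.16% of all genes had a larger difference in either direction. The 3 KO values were exactly equal, as the median polish of RMA can produce, so their SD of 0.00 measures no precision. The call held without each array in turn (adjusted p = 0.0196 to 0.0469).

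The adiponectin receptors moved in opposite directions. Adipor2 read 10.22, 10.22 and 10.23 in WT and 10.44, 10.45 and 10.48 in KO, and the groups did not overlap. Adipor2 rose by 0.23 (SE 0.03, limma adjusted p = 0.00877), a fold of 1.17. Without WT replicate 3 the difference was again 0.23 and the adjusted p 0.0592, against 0.0015 to 0.0842 over all alternatives.

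Adipor1 read 12.03 on each WT array and 11.93, 11.84 and 11.87 in KO. Every KO array was lower than every WT array. The WT mean was 12.03 ± 0.0035 and the KO mean 11.88 ± 0.04 (SD, n = 3 each). This WT SD, like that of Adipor2 (0.0041), comes from 3 nearly equal values and is a poor guide to precision. Adipor1 fell by 0.15 (SE 0.03, limma adjusted p = 0.0489), a fold of 1.11. This call lay close to the threshold. It was lost after quantile normalization again (-0.10, adjusted p = 0.249), after cyclic loess (-0.11, adjusted p = 0.142) and after setting a common median (-0.15, adjusted p = 0.0819), without a change of sign, and it was kept in 1 of the 6 fits that left out 1 array, that without KO replicate 1 (adjusted p = 0.0465, otherwise 0.103 to 0.171).

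**Figure D2:**
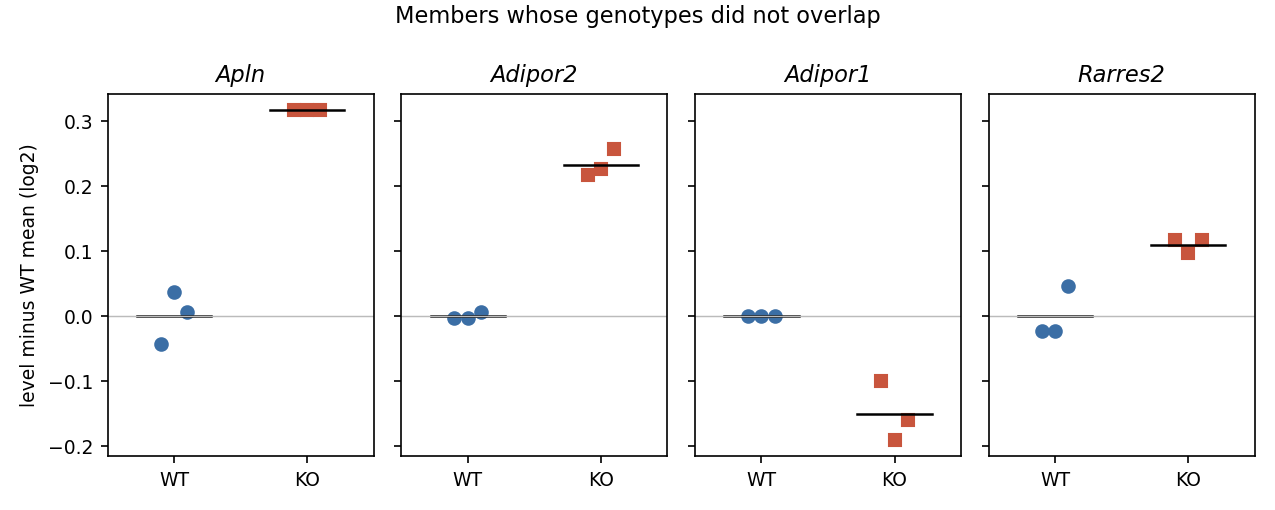
Level minus the WT mean (log2) on each array for Apln, Adipor2, Adipor1 and Rarres2, the 4 members whose genotypes did not overlap, with the group mean as a bar and the 3 arrays of a group set side by side. Apln and Adipor2 are higher and Adipor1 is lower on all KO arrays, and Rarres2 is higher by 0.11 without passing the adjusted test.

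In all, 2 of the 9 measured members rose, 1 fell and 6 did not pass. Of all genes 3.34% were called higher and 3.97% lower, 7.31% in either direction. Among genes above background in both groups 10.7% were called. The 4 members whose groups did not overlap stand beside 24.9% of all genes. The median difference of the 9 members was 0.02, beside 0.00 over all genes. Without WT replicate 3 only Apln passed, while 189 genes passed in all against 1457 with every array.

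**Figure D3:**
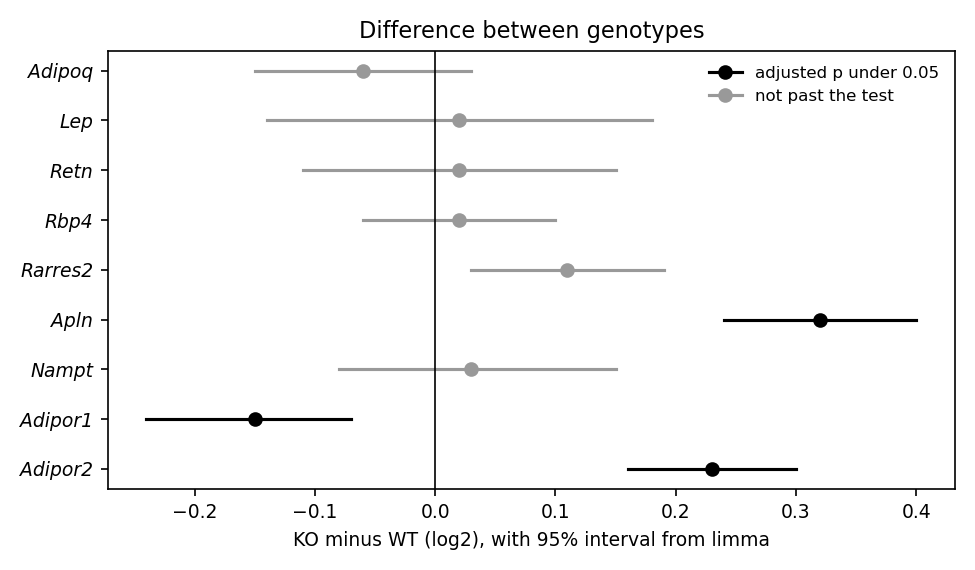
KO minus WT difference (log2) of the 9 members with its 95% interval from limma. Black marks Apln at 0.32, Adipor2 at 0.23 and Adipor1 at -0.15, which had an adjusted p under 0.05, and grey marks the other 6 members, whose differences lie between -0.06 and 0.11.

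Genes whose levels followed the called members most closely over the 6 arrays are given as a description, since any gene that separates the genotypes scores high. For Apln they were Tbl2 (Pearson r = 0.996), Wdr31 and A530032D15Rik (r = 0.995 each), among 369 genes above an r of 0.95. For Adipor2 they were Dnajc11, St6gal1 and Rasgef1a (r = 0.999 each), among 471 such genes. For Adipor1 they were Mmp23 (r = 0.999), Cmtm4 and Atic (r = 0.998 each), among 418. Each r was taken over the 6 arrays, for each of 13081 non-member genes whose mean over all arrays was above background.

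Of 18 measured adipokine receptors and mediators of their signals, 1 rose, 1 fell and 16 did not pass, beside 7.31% of all genes called. The share was 10.7% among genes above background in both groups. The median difference of the list was 0.01, and 13 of its genes lay above background. T-cadherin, Cdh13, a surface protein that binds adiponectin without a signalling domain of its own, read 10.70, 10.64 and 10.68 in WT and 10.49, 10.48 and 10.47 in KO. It fell by 0.19 (SE 0.03, limma adjusted p = 0.019) and its groups did not overlap. The call held only without WT replicate 2 or KO replicate 1 among the fits that left out 1 array (adjusted p = 0.0545 to 0.0988 in the other 4). Stat3, the transcription factor downstream of the leptin receptor and of many cytokines, rose by 0.14 (SE 0.03, limma adjusted p = 0.0444), a call lost when any array was left out (adjusted p = 0.0559 to 0.156).

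The receptors of the other ligands did not pass the test. The leptin receptor gene Lepr, also a marker of marrow stroma in vivo, lay below background, at 5.29 ± 0.08 for WT and 5.30 ± 0.12 for KO (SD, n = 3 each). The apelin receptor gene Aplnr read 6.99 ± 0.07 and 7.01 ± 0.11, and the chemerin receptor gene Cmklr1 6.90 ± 0.19 and 6.98 ± 0.11, both close to the background level of 6.83. Apln and Rarres2, the ligands of the latter receptors, were above background on every array. Stra6, which takes up retinol from Rbp4, differed by 0.09 (limma adjusted p = 0.415), and Cap1, reported as a resistin receptor, by -0.03 (limma adjusted p = 0.601).

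Of 15 measured genes of adipokine processing, transport and substrates, 2 rose, 1 fell and 12 did not pass, with a median difference of 0.04. The shares called over all genes and over genes above background in both groups were 7.31% and 10.7%. The genes that passed include the pair of endoplasmic reticulum proteins that retain and release adiponectin during its assembly, and they moved in opposite directions. Ero1a, the oxidase, read 12.15, 12.15 and 12.14 in WT and 12.41, 12.39 and 12.45 in KO and rose by 0.27 (SE 0.03, limma adjusted p = 0.00702). Erp44, the chaperone that holds adiponectin back through a thiol bond, read 10.65, 10.55 and 10.63 in WT and 10.24, 10.42 and 10.37 in KO and fell by 0.27 (SE 0.06, limma adjusted p = 0.0383). Nmnat2, which completes NAD from the product of Nampt, rose by 0.32 (SE 0.04, limma adjusted p = 0.00694), from 9.33, 9.37 and 9.33 to 9.72, 9.66 and 9.62. Without WT replicate 3 none of these 3 calls held (adjusted p = 0.0538 for Nmnat2, 0.0537 for Ero1a and 0.16 for Erp44), and that of Erp44 was lost whichever of the 6 arrays was omitted (adjusted p = 0.0588 to 0.16).

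Of 28 other measured adipokines and secreted factors of adipocytes, 6 rose, 1 was called lower at levels below background and 21 did not pass. The calls stand beside 7.31% of all genes and 10.7% of genes above background in both groups. The median difference was 0.01, and 12 of the 28 were not above background. Angptl4, a secreted inhibitor of lipoprotein lipase, rose by 0.51 from 10.18, 10.21 and 10.14 to 10.72, 10.65 and 10.70 (limma adjusted p = 0.00184). Adrenomedullin, Adm, a vasodilator peptide, rose by 0.45 from 9.64, 9.65 and 9.57 to 10.07, 10.02 and 10.11 (limma adjusted p = 0.00349). Both were higher on all KO arrays, and both calls held without each array in turn. Ccn5, a secreted Wnt-induced protein, rose by 0.39 (limma adjusted p = 0.00445) and the angiogenic factor Vegfa by 0.20 (limma adjusted p = 0.013). For Vegfa the adjusted p was 0.0692 when WT replicate 3 was left out and 0.0518 when KO replicate 3 was. The gene called lower was the cytokine gene Il6, with a difference of -0.43 (limma adjusted p = 0.0436). Its levels of 5.62 to 6.28 were below background on all arrays, so the size of this difference cannot be read as a change in expression, and the call was kept among these fits only without WT replicate 2 (adjusted p otherwise 0.108 to 0.182). Without WT replicate 3 or KO replicate 3 the list had 3 calls in place of 7, and without WT replicate 1 it had 4.

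**Figure D4:**
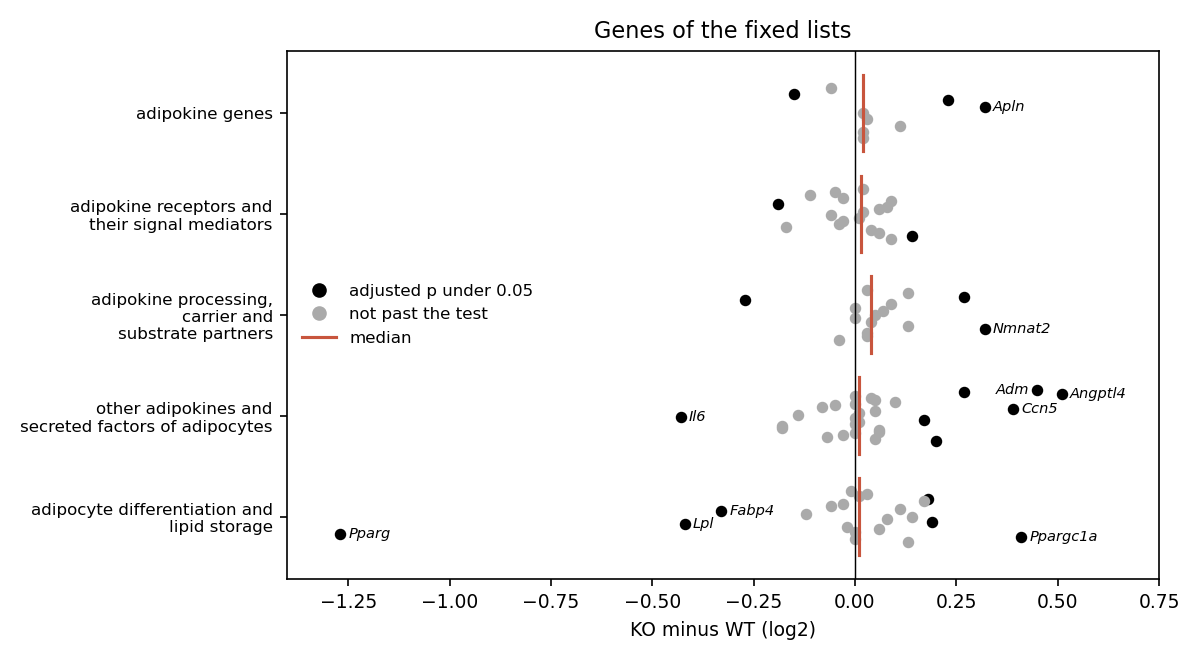
KO minus WT differences (log2) of the 9 members and of the genes in 4 related lists, with 1 point per gene, black for an adjusted p under 0.05, names for called genes that differ by at least 0.3, and the list median in red. The medians lie between 0.01 and 0.04, while Angptl4, Adm, Ppargc1a, Ccn5, Nmnat2 and Apln are the highest named points and Pparg at -1.27 is the lowest.

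The adipocyte genes around the hormones gave a mixed picture. Of 21 measured genes of adipocyte differentiation and lipid storage, 3 rose, 3 fell and 15 did not pass, with a median of 0.01. Calls were made for 7.31% of all genes and 10.7% of genes above background in both groups. In this list 17 genes were above background. Cd36 (4.48 in WT and 4.52 in KO), Cidea, Aqp7 and Gpd1 were not, and Cidec (7.24 and 7.18) lay close to it. Pparg, the transcription factor that drives Adipoq and other adipocyte genes, fell by 1.27 (limma adjusted p = 0.00113), while Adipoq was at background in both genotypes. Fabp4, a fatty acid carrier of adipocytes, read 10.83, 10.68 and 10.81 in WT and 10.38, 10.52 and 10.43 in KO, well above background. Fabp4 fell by 0.33 (limma adjusted p = 0.0186), as did lipoprotein lipase Lpl by 0.42 (limma adjusted p = 0.00964). The coactivator gene Ppargc1a rose by 0.41 (limma adjusted p = 0.00292), the early adipogenic factor Cebpb by 0.18 (limma adjusted p = 0.0269) and hormone-sensitive lipase Lipe by 0.19 (limma adjusted p = 0.0269). Cebpa (7.71 in WT and 7.72 in KO) differed by 0.01 (limma adjusted p = 0.924). The lipid droplet gene Plin1 (7.55 and 7.53) differed by -0.02 (limma adjusted p = 0.897), at levels above background but under the median of all genes, 7.58. Leaving out 1 array, the calls of Fabp4 and Lipe held only without WT replicate 2 or KO replicate 2, that of Cebpb only without KO replicate 2, and that of Lpl was lost only without WT replicate 3 or KO replicate 3. Without WT replicate 3 or KO replicate 3 the list had 2 calls in place of 6, and without WT replicate 1 or KO replicate 1 it had 3. In these bulk cultures a change in the number of adipocytes and a change in RNA per adipocyte cannot be told apart.

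Markers of the labelled cell type were present. All 11 measured markers of bone marrow stroma lay above background, though Thy1 (7.27 in WT and in KO) and Eng (7.18 and 7.17) lay close to it. Limma called 2 of the 11 higher in KO and 5 lower. Of all genes 7.31% were called in either direction, and of genes above background in both groups 10.7%. Mean levels over the list were 9.58 to 9.61 in WT and 9.51 to 9.53 in KO. Of 10 macrophage markers 3 were above background, with mean levels of 6.65 to 6.73 in WT and 6.68 to 6.71 in KO. The pan-leukocyte gene Ptprc and the macrophage gene Adgre1 were below background. The Fc receptor gene Fcgr1 (7.09 ± 0.02 in WT and 7.13 ± 0.08 in KO) and the adaptor gene Tyrobp (7.12 ± 0.13 and 7.17 ± 0.07, SD with n = 3 each) were above background on all 6 arrays but lay close to it. Cd68, a lysosomal membrane protein gene of macrophages, was also above it on all 6 arrays and fell by 0.19 (limma adjusted p = 0.0153), a call lost when WT replicate 1, WT replicate 3 or KO replicate 3 was left out. Of 8 neutrophil markers limma called 0, with 2 at an unadjusted p under 0.05, and 2 were above background. Of 6 endothelial markers 3 were above background, all close to it: Cdh5 (6.91 in WT and 6.95 in KO), Tie1 (6.90 and 6.92) and Kdr (7.14 and 6.85). Limma called 1 lower, Kdr, with a difference of -0.29 (adjusted p = 0.0425). KO replicate 1, at 6.77, was below background, so the size of this difference cannot be read. The call of Kdr held only without WT replicate 2. Of 4 erythroid markers limma called 0, with 0 at an unadjusted p under 0.05. Of 6 osteoclast markers 1 rose, Ctsk, named after its value was seen, by 0.16 (limma adjusted p = 0.0466), a call lost whichever of the 6 arrays was omitted. The part of the stromal markers' changes in the members' differences was not tested.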

How the data were processed

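Total RNA (6 µg) of each culture was labelled and hybridised to its own single-colour Affymetrix array, per the labels' protocols. The authors deposited log2 expression values per probe set, made with RMA, and the submitters' processing notes list Affymetrix Expression Console and Partek beside it with no versions. Such scaling shows changes relative to other genes, so a shift of all transcripts cannot be seen. The array medians lay between 7.19 and 7.23, and no arrays were identical. Of 35556 probe sets, 21789 carried 1 symbol in the platform annotation, 1621 several and 12146 none. The GRCm38.p6 gene table matched 21698 of the former by gene identifier and gave their current symbols. Where a gene had several 1-symbol probe sets, that with the highest mean was taken. Arrays give no read depth, and their number limits the precision.

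KO was compared with WT, two-sided, with limma 3.58.1 in R 4.3.3 (lmFit and eBayes, no covariates), with Benjamini-Hochberg adjustment over all 19938 genes, no filter on dim genes, and calls at an adjusted p under 0.05. Of all genes 1457 were called, 666 higher and 791 lower, which became 862 and 639 after quantile normalization again and 859 and 667 after cyclic loess. The script was tested on simulated data. The named genes are the members, up to 4 called genes of each list in each direction by p, 6 receptors and 5 adipocyte genes. Mir188 and the genes closest in level to the called members were also named. Markers, and adipocyte genes given only for their level, were named outside this rule. Among them Cd68, Kdr and Ctsk were the only called genes of their marker lists. The members and lists were chosen with earlier results of these data known.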

Additional observations from a re-analysis of the deposited data

How the results depend on the processing

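The main limits are 3 arrays a group, folds of at most 1.25 in all 9 members, and log2 values that fall to background for 3 of them, where the size of a change cannot be read. Apln passed in 15 of 16 alternatives, Adipor2 in 14, Adipor1 in 5, and the other 6 members in none.

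The number of genes called in all was 3418 with array weights, which lean on WT replicate 3 with a weight of 7.41, 2196 with an intensity trend, 2192 among genes above the olfactory receptor level, and 189 to 932 without 1 array. With the replicate number as a replicate block it was 52, with 3209 genes at an unadjusted p under 0.05. The labels do not say whether the numbers pair a WT with a KO sample. The deviations of same-numbered arrays from their group means correlated at -0.3, -0.26 and -0.02, and those of unlike-numbered arrays at -0.12 to 0.33. With 3 arrays a group these values cannot decide whether the samples are paired. With this block 0 members were called by limma, 0 higher and 0 lower, while 3 had an unadjusted p under 0.05 (Apln at an adjusted p of 0.059, Adipor2 at 0.0842 and Adipor1 at 0.183), and the lists of receptors, of processing, of other adipokines and of adipocyte genes had 0, 0, 1 and 1 calls.

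Without 1 array, 1 to 3 members were called, 1 to 2 higher and 0 to 1 lower, and the 4 lists had 0 to 1, 0 to 2, 3 to 6 and 2 to 6 calls in the same order. The median difference of the members was then 0.016 to 0.064, with the upper end without WT replicate 2. The member called lower, Adipor1, became 0 calls after quantile normalization again, cyclic loess, a common median, robust variances (adjusted p = 0.0535) and with each probe set on its own (adjusted p = 0.051), and the cause was not tested. With a common median the receptor list had 1 call in place of 2.

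Signs turned only for genes that were not called. With array weights Retn differed by -0.0021, Lepr by -0.04, Aplnr by -0.05, Cebpa by -0.03 and Plin1 by 0.04. After cyclic loess Lepr differed by -0.00094 and Cap1 by 0.01, and after quantile normalization again Cap1 differed by 0.01. Without 1 array Lep ranged from -0.04 to 0.09, Retn from -0.04 to 0.06, Lepr from -0.06 to 0.06, Aplnr from -0.04 to 0.06, Cebpa from -0.0039 to 0.04 and Plin1 from -0.05 to 0.02. Mir188 passed with array weights (-0.18, adjusted p = 0.0422). Genes below background were not tested in the fit limited to genes above it, and that fit gave no median of the 9 members.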
